A study of Mus musculus with 4 samples.

Results

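Cholesterol efflux and transport genes were examined in macrophages with and without Pparg, the gene of the lipid-activated nuclear receptor PPARγ. The set named 9 genes by function: the efflux transporters Abca1 and Abcg1, the apolipoprotein genes Apoe and Apoc2, the phospholipid transfer protein gene Pltp, the lysosomal cholesterol exporters Npc1 and Npc2, the esterifying enzyme gene Soat1 and the sterol hydroxylase gene Cyp27a1. Each probe set with values that the platform annotation gives to 1 of these genes was taken, which left 8 probe sets of 7 genes, out of 9389 probe sets of 7577 genes that had values and a single gene name. Abca1 had 2 probe sets and the other 6 genes had 1 each. A second Apoe probe set was blank on all 4 arrays. The annotation used here gives no probe set to Soat1 or Cyp27a1, so these 2 members were not analysed here.

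The samples were peritoneal macrophages of mice of a mixed 129/SV and C57BL/6 strain background, labelled PPARg WT (2 arrays) or PPARg KO (2 arrays); how Pparg was deleted, the age of the mice and whether animals were pooled are not given in the sources used here. All mice received 2.5 ml of thioglycollate at 3%, an irritant that recruits monocyte-derived macrophages, and were lavaged after 3 days. The cells of both genotypes were plated in 10% serum, washed after 5 h and held for 24 h in 0.5% serum with no ligand or lipid load. Each RNA was hybridised to a 1-colour Affymetrix array, where a probe set is a group of short probes read as 1 signal in intensity units. Nothing in the labels says that the arrays of a genotype come from separate animals or cultures, so a p-value here measures the spread between arrays, which may be technical.

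Macrophages take up cholesterol from lipoproteins and dying cells and cannot break down its ring. They store it as esters, made by the enzyme that Soat1 encodes, or export it. NPC2 and NPC1 hand cholesterol out of the lysosome. ABCA1 then passes it with phospholipid to lipid-poor apolipoprotein A-I, ABCG1 passes it to HDL, and secreted apolipoprotein E also accepts it. Much of this programme is switched on by the liver X receptors (LXRs), which sense oxysterols and bind DNA with RXR as partner. In macrophages treated with PPARγ ligands, PPARγ is known to induce the LXRα gene, Nr1h3, and so to act on Abca1. The comparison of KO with WT asks whether these transcripts differ when PPARγ is missing and no ligand has been added.

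The promoter of Abca1, a gene of this set, holds a known site of the LXR and RXR pair. LXR and RXR bind a pair of half-sites 4 bases apart. A relaxed form of that element, a pair of NGGTNA half-sites in the same direction with 4 bases between them, was written with the known Abca1 element in view and searched on both strands of RefSeq's promoter windows (GRCm38.p6, 250 bases before to 50 after each start). RefSeq windows were matched for 7 of the 9 members; Abcg1 and Npc1 had none here. The stretch below is the 250 bases before the Abca1 start, chr4:53159896-53160145 on the minus strand, read 5′ to 3′. The capitals mark an E-box, CACGTG, at -147 to -142 from the start and the match to the LXR form at -67 to -52.

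Abca1: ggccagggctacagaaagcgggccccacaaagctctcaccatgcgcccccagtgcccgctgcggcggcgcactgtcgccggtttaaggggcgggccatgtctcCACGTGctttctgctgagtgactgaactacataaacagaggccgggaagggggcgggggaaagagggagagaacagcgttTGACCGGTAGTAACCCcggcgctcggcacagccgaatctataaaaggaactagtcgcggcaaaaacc

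On the other strand the second stretch reads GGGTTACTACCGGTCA. The relaxed form was present in 0.718% of the 32851 promoter windows and CACGTG in 7.15%. Abca1 was the only member with either match in its window. The stricter PPAR form, a pair of AGGTCA half-sites in the same direction with 1 base between them, was found in no member window and in 0.0396% of all windows. A match describes letters only, and its lack says nothing about binding elsewhere.

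The 4 arrays had median signals from 136.7 to 142 intensity units. All 8 probe sets of the set exceeded the highest of 12 antisense control rows on each of the 4 arrays (143.7 to 156.7), so each was measured above that background. Each difference given is the KO mean less the WT mean of log2(signal + 16), and folds are taken on that scale. Tests are limma's, with Benjamini-Hochberg adjustment over all 6389 tested probe sets. Pparg itself read 61.1 and 73.1 in WT and 43 and 40.6 in KO. Each of these 4 signals was under the median of the antisense controls on the same array. Its log2 difference was -0.52 (SE 0.11, limma adjusted p = 0.00012 in the fit of all probe sets), and without WT replicate 2 it was -0.42 (adjusted p = 0.137). The labels do not describe the deleted part of the gene, so this probe set may lie outside it.

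None of the 8 probe sets of cholesterol efflux and transport genes passed an adjusted p of 0.05, where 227 of 6389 tested probe sets (3.55%) did. At that background, 0 of 8 is not a result about these genes. At an unadjusted p under 0.05 there was 1 of 8 (Apoe), against 9.47% of all tested probe sets. The direction was lower in KO for 6 probe sets and higher for 2, and 57.9% of all tested probe sets were lower. The median log2 difference of the set was -0.10, against -0.02 over all tested probe sets. Single differences ran from -0.19 to 0.37, with 95% intervals that lay within -0.44 and 0.66. The SEs rest on a spread pooled over all probe sets of like brightness, since 2 arrays a genotype leave 2 residual degrees of freedom.

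**Figure D1:**
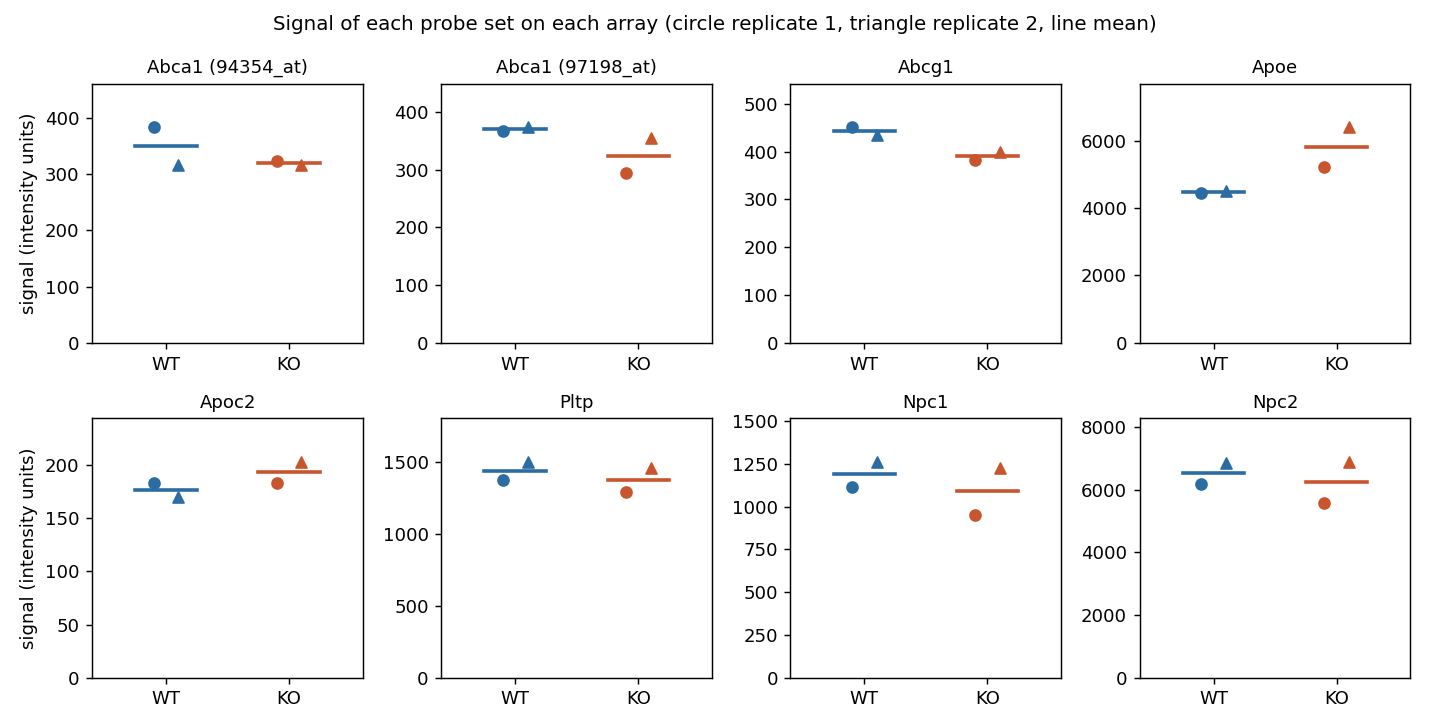
Signal in intensity units (y axis, from 0) of each of the 8 probe sets on the 2 WT and 2 KO arrays. Circles are replicate 1, triangles replicate 2 and lines genotype means (n = 2). The KO arrays lie wholly above the WT arrays for Apoe and wholly below them for Abcg1 and for Abca1 97198_at; the other 5 overlap.

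The efflux transporters read slightly lower in KO without passing the test. Abcg1, which loads cholesterol onto HDL, read 451.7 and 434 in WT and 382.9 and 399 in KO. The genotypes did not overlap and both pairs were tight, with means of 442.9 ± 12.5 in WT and 391 ± 11.4 in KO (SD, n = 2). The log2 difference was -0.17 (95% interval -0.44 to 0.09, limma adjusted p = 0.944). That interval leaves room for a fall of up to 1.36-fold and a rise of up to 1.07-fold. KO arrays lay wholly on 1 side of WT at 32.4% of tested probe sets, and at 3 of these 8.

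Abca1, which starts HDL formation and whose promoter is printed above, was read by 2 probe sets that placed their outlying array differently. Probe set 94354_at read 384.1 and 316.4 in WT and 323.8 and 315.6 in KO. Only WT replicate 1 stood above the rest, and the log2 difference was -0.12 (interval -0.37 to 0.13, limma adjusted p = 1). Without WT replicate 1 it was 0.01. Probe set 97198_at read 367.3 and 374 in WT and 294 and 354.7 in KO. Here both KO arrays were below both WT arrays, KO replicate 1 by far the most, and the log2 difference was -0.19 (interval -0.44 to 0.07, limma adjusted p = 0.865). Without KO replicate 1 it shrank to -0.06, and without KO replicate 2 it was -0.32 (adjusted p = 0.162). The signals of the 2 probe sets were close to each other, but levels of different probe sets cannot be set against each other.

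Apoe had the largest difference of the set, and whether it passed depended on how the arrays were scaled and how the spread was estimated. Apolipoprotein E is secreted in bulk by macrophages and carries exported cholesterol. Its probe set read 4452 and 4502.4 in WT and 5222 and 6408.9 in KO. Both KO arrays lay above both WT arrays, and the KO arrays lay far apart: the means were 4477 ± 35.6 in WT and 5815 ± 839.3 in KO. The log2 difference was 0.37, or 1.29-fold (interval 0.08 to 0.66, limma adjusted p = 0.213).

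A gap between the KO arrays was also seen for other bright probe sets. Within the brightest decile, the median gap between replicate 2 and replicate 1 was 0.212 log2 units in KO and 0.073 in WT, replicate 2 being the brighter. For Apoe these gaps were 0.29 in KO and 0.02 in WT. All 9 probe sets for the bacterial control RNAs, which are added in fixed amounts, were also brighter on KO replicate 2 than on KO replicate 1, by a median of 0.29; between the WT arrays the same median was 0.19. Quantile normalization, which gives all arrays the same distribution, moved the Apoe log values to 12.16 and 12.14 in WT and 12.45 and 12.53 in KO. The gap within KO shrank to 0.08, the difference was 0.34 (interval 0.24 to 0.44), and limma's adjusted p was 2.99e-05. In that setting Apoe was the 1 member of 8 that passed, where 6.56% of tested probe sets did.

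Apoe also passed with 1 common spread for all brightness levels (adjusted p = 0.0378, background 4.54%) and without KO replicate 1 (log2 difference 0.52, adjusted p = 0.000105, background 3.93%). It did not pass without KO replicate 2 (0.22, adjusted p = 0.307), without either WT array (0.36 and 0.38, adjusted p = 1 for both) or with its own spread alone (adjusted p = 0.888). In every one of these settings the difference was above 0.

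**Figure D2:**
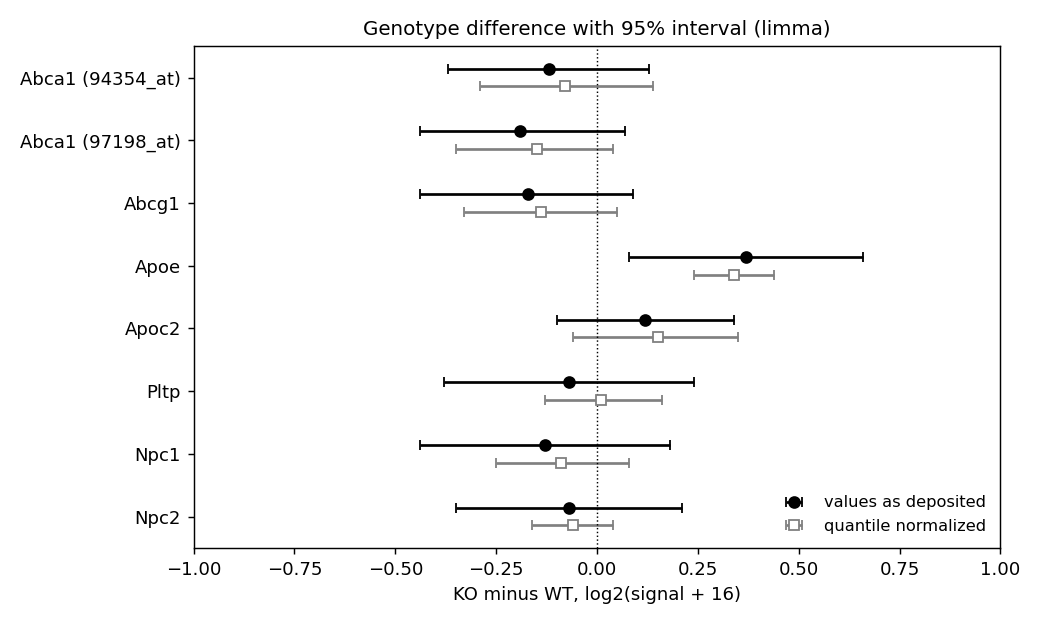
Genotype difference, KO mean less WT mean of log2(signal + 16) (x axis), for each of the 8 probe sets, with 95% intervals from limma. Filled circles use the values as deposited and open squares the quantile normalized values; Apoe, at 0.37 and 0.34, is the 1 probe set whose interval lies above 0 in both, and all the others include 0.

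**Figure D3:**
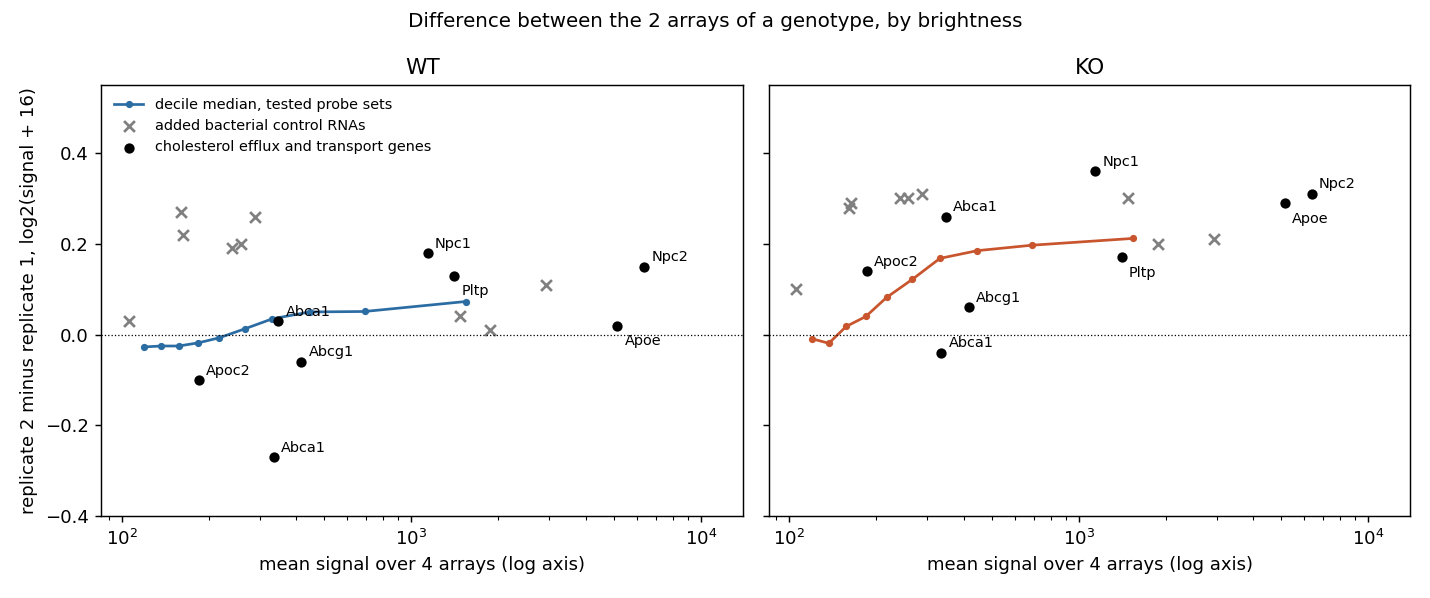
Replicate 2 minus replicate 1 on the log2(signal + 16) scale (y axis) against the mean signal over the 4 arrays (x axis, log scale), for WT and for KO. Lines join decile medians of the tested probe sets, crosses are the 9 bacterial control probe sets and dots the 8 efflux and transport probe sets. In KO the line runs from -0.009 in the dimmest decile to 0.212 in the brightest, and 7 of the 8 dots are above 0.

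Lavage cells can hold cells other than macrophages that also make apolipoprotein E, so markers of such cells are given beside it. Of 15 probe sets for 10 fibroblast and mesothelial marker genes, 7 were tested, 1 was higher in KO past the threshold and 0 were lower. The 1 was Dcn, the gene of the matrix protein decorin, at 616.3 and 560.9 in WT against 945.2 and 1059.7 in KO (limma adjusted p = 6.31e-05). Their median log2 difference was 0.27. The genotypes did not overlap at 5 of the 7 tested, against 32.4% of all tested probe sets. These were Dcn, Col1a2 (log2 difference 0.37), Pdgfra (0.29), Col3a1 (0.27) and 1 Col1a1 probe set (0.06), all higher in KO. The other tested Col1a1 and Pdgfra probe sets overlapped, at 0.21 and -0.03. The summed signal of these 15 was 2683 and 2669 in WT against 3240 and 3582 in KO. None was at 0, but the mesothelial and fibroblast markers Msln, Upk3b, Wt1, Krt19 and Pdgfrb did not exceed the highest antisense control on any array. Krt19, under the antisense median on every array and not tested, was at 0.46 on 1 probe set and -0.01 on the other. The part of such cells in the Apoe difference was not tested. In RNA from mixed cells, a change in the number of cells of a type and a change in RNA per cell cannot be told apart.

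Among macrophage markers, Lyz2 read 6966.4 and 6912.6 in WT and 6871.6 and 7518.7 in KO, among the brightest probe sets on every array. Of 10 macrophage marker probe sets tested, 1 was higher in KO past the threshold (Mrc1) and 1 was lower (Mertk), with a median of -0.14. Mertk read 225.6 and 233.4 in WT and 134.7 and 150.5 in KO. Mrc1 read 93 and 94.8 in WT, under the antisense median of those arrays, and 174.1 and 205.4 in KO. The genotypes did not overlap at 5 of the 10, against 32.4% of all tested probe sets. These were Mrc1, higher in KO, and Mertk, Adgre1 (log2 difference -0.32) and both Csf1r probe sets (-0.16 and -0.34), lower in KO. The Csf1r probe set at -0.34 exceeded the highest antisense control on only 2 arrays, and Mertk on 3. Of 3 neutrophil marker probe sets tested, 1 was lower (S100a8). Those of B cells (9 tested), T and NK cells (2), dendritic cells (4), mast cells and basophils (1), eosinophils (1) and adipocytes (2) had 0 past the threshold.

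Apoc2 lies in the same gene cluster as Apoe, in the order Apoc2, Apoc4, Apoc1 and Apoe in RefSeq. It encodes the cofactor that activates lipoprotein lipase. It read 182.9 and 170.2 in WT and 182.8 and 203.3 in KO. The genotypes overlapped narrowly, and the log2 difference was 0.12 (interval -0.10 to 0.34, limma adjusted p = 1). Of the 2 genes between them, Apoc1 read 87.6 and 87.2 in WT and 83.7 and 73.4 in KO, and Apoc4 read 103.7 and 85.9 in WT and 99.8 and 95.3 in KO. All 8 of these signals were below the highest antisense control of their array, and neither gene was bright enough to be tested.

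Pltp, which encodes a secreted protein that moves phospholipid between lipoproteins and enlarges HDL, had close values in both genotypes. It read 1374.5 and 1500.9 in WT and 1293 and 1454.4 in KO. The genotypes overlapped, and each genotype's replicate 2 was the higher one. The log2 difference was -0.07 (interval -0.38 to 0.24, limma adjusted p = 1), and after quantile normalization it was 0.01 (interval -0.13 to 0.16). That narrower interval leaves out changes of the size seen for Apoe. The interval from the values as deposited takes in a fall of that size, so such a change is not excluded.

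The pair that exports cholesterol from the lysosome also overlapped between genotypes. NPC2 is a soluble protein that binds cholesterol in the lysosome and passes it to the membrane protein NPC1. Npc2 read 6197.9 and 6869.3 in WT and 5577.8 and 6899.6 in KO. KO replicate 1 was the lowest array and KO replicate 2 the highest, and the log2 difference was -0.07 (interval -0.35 to 0.21, limma adjusted p = 1). Npc1 read 1112.3 and 1262.6 in WT and 952.4 and 1223.8 in KO. KO replicate 1 was again the lowest, and the log2 difference was -0.13 (interval -0.44 to 0.18, limma adjusted p = 1).

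For both genes the gap between the KO arrays (0.31 for Npc2 and 0.36 for Npc1 on the log2 scale) was larger than the genotype difference. Leaving out KO replicate 1 turned both differences to small positive values, 0.08 and 0.05. After quantile normalization they were -0.06 (interval -0.16 to 0.04) for Npc2 and -0.09 (interval -0.25 to 0.08) for Npc1.

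Other genes of the pathway were taken in 7 lists of sterol handling, with 78 probe sets of 58 genes, 51 of them bright enough to be tested. Of these 51, 1 passed the threshold, higher in KO, which is 1.96% beside the 3.55% of all tested probe sets, and the median log2 difference was -0.02. The 1 was Clu, which encodes clusterin (apolipoprotein J), a secreted chaperone carried on HDL. It read 166 and 163.9 in WT and 229.6 and 266.1 in KO, so both KO arrays were clearly higher. Clu rose 1.45-fold (log2 difference 0.54, SE 0.11, limma adjusted p = 0.000117); without WT replicate 1 adjusted p was 0.1 and without WT replicate 2 it was 0.168. A dimmer Clu probe set, below the highest antisense control on all arrays, read 0.19 on the log2 scale (adjusted p = 0.70). The fibroblast and mesothelial marker values given beside Apoe apply to Clu too, and their part in it was not tested.

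**Figure D4:**
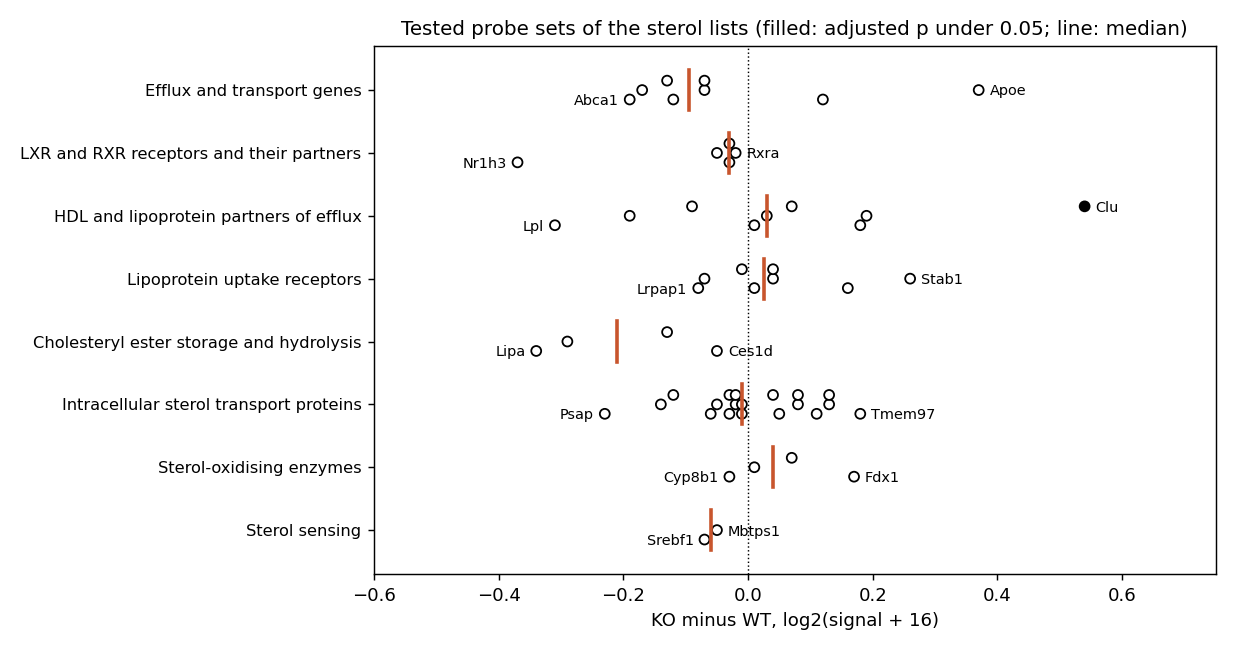
Genotype difference, KO mean less WT mean of log2(signal + 16) (x axis), of each tested probe set in the set of efflux and transport genes (top) and in the 7 other sterol lists. Red lines are medians; filled points have an adjusted p under 0.05, which holds for Clu at 0.54, and the lowest and highest gene of each list is named.

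Among the tested LXR and RXR receptors and partners, Nr1h3 had the most negative difference. It encodes LXRα and read 285.9 and 323.9 in WT and 222 and 242.9 in KO, with no overlap (log2 difference -0.37, interval -0.60 to -0.13, limma adjusted p = 0.0607). Its adjusted p was 0.0387 with quantile normalization, 0.0384 without trend and 0.0134 without KO replicate 2, but 0.162 with median centring, 0.183 without KO replicate 1, 0.58 without WT replicate 1 and 1 without WT replicate 2. In each of these settings the difference was below 0. Its partners Rxra (log2 differences -0.05 and -0.02 on 2 probe sets) and Rxrb (-0.03) and the coactivator gene Ncoa5 (-0.03) had intervals that spanned 0. Of 5 probe sets tested on this list, 0 passed, with a median of -0.03. Among partners of efflux on lipoproteins, 1 of 9 passed (Clu), with a median of 0.03. Lpl, which encodes the lipase that Apoc2 activates, read lower in KO on both its probe sets, at 573 and 535.2 against 427.5 and 458.8 on 1 of them (log2 difference -0.31, adjusted p = 0.373). Lcat, which esterifies cholesterol on HDL, was at 0.18 on its tested probe set (limma adjusted p = 0.778). A dimmer Lcat probe set, under the antisense median on every array and not tested, was at -0.13.

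Uptake receptors had 0 of 8 past the threshold, with a median of 0.03. The scavenger receptor genes Stab1 (log2 difference 0.26, adjusted p = 0.268) and Msr1 (0.16, adjusted p = 1) had the smallest p-values. Next came Lrpap1 (-0.08), which encodes a chaperone of LRP1, and then the LDL receptor family gene Lrp1 (-0.07). The other tested Msr1 probe set was at 0.01, and Stab1 exceeded the highest antisense control on only 1 array. Ester storage and hydrolysis had 0 of 4, with a median of -0.21. Lipa, the lysosomal acid lipase that frees cholesterol for NPC2, read 1085.3 and 976.4 in WT and 751.7 and 869.3 in KO, without overlap (log2 difference -0.34, interval -0.65 to -0.04, adjusted p = 0.366). Its adjusted p was 0.0257 with quantile normalization and 0.0348 without KO replicate 2, but 0.672 with median centring, 0.514 without KO replicate 1 and 1 without either WT array. Lipe, hormone-sensitive lipase, was at -0.29 (adjusted p = 0.178), the lipid droplet coat gene Plin2 at -0.13 and the esterase gene Ces1d at -0.05 (adjusted p = 1 for both).

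Intracellular sterol transport proteins had 0 of 19 past the threshold, with a median of -0.01. The saposin precursor gene Psap (log2 difference -0.23), Tmem97 (0.18), the sterol carrier gene Scp2 (0.13) and the oxysterol-binding protein family gene Osbpl11 (-0.12) had the smallest p-values, with adjusted p from 0.762 to 1. The value for Psap is from 1 of its 3 tested probe sets, and the others were at -0.03 and -0.01. The other tested Scp2 probe set was at 0.05. Sterol-oxidising enzymes had 0 of 4, with a median of 0.04: the ferredoxin gene Fdx1 was at 0.17 (adjusted p = 0.833), Hsd17b4 at 0.07, Cyp8b1 at -0.03 and Hsd3b7 at 0.01. The sterol sensing list had 0 of 2, with Srebf1 at -0.07 and Mbtps1, whose protease releases the SREBP factors, at -0.05.

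The genes with the profile most like that of Apoe over the 4 arrays, by Euclidean distance between log2 values centred on each gene's mean, were Lmo2 (distance 0.04), Tfrc (0.04) and Itgb5 (0.05). Tfrc, the transferrin receptor gene, read 176.1 and 176.9 in WT and 212.6 and 268.2 in KO. It passed the threshold (log2 difference 0.41, limma adjusted p = 0.0128), and Lmo2 (adjusted p = 0.206) and Itgb5 (adjusted p = 0.396) did not. Each of the 3 shared with Apoe a tight WT pair and a KO replicate 2 above KO replicate 1, and with 4 arrays such likeness is a description only.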

How the data were processed

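RNA from 2 WT and 2 KO macrophage samples was measured on 1 array each, with groups and replicate numbers from the sample titles. The deposited table gives a linear intensity for every probe set on every array, judging by its values; the sources used here do not say how the authors summarised and scaled them. Of 12488 rows, 1780 were blank on all arrays; 59 controls were set aside and 10649 probe sets kept. The annotation gave 1 gene for 9389, several for 341 and none for 919; 9377 matched RefSeq (GRCm38.p6) by gene identifier, which served for names and order only, and promoter sequences are RefSeq's.

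Values were used as deposited, as log2(signal + 16), because array medians differed by under 0.1. The 6389 probe sets with a mean log2 value above the 40th percentile were tested two-sided with limma 3.58.1, run under R 4.3.3, using lmFit and a trended eBayes, at an adjusted p under 0.05. limma estimated infinite prior degrees of freedom, which means that each spread came from the brightness trend alone. Pparg, Apoc1, Apoc4 and the untested marker and Lcat probe sets, all below the filter, were read from the table or the fit of all probe sets. An exact permutation test of 2 against 2 arrays cannot go below p = 0.33 and was not used. On simulated data the same code recovered 100% of the probe sets changed by 1 and 84.4% of those changed by 0.5 log2 units (6389 probe sets, 177 changed), with 5 false calls. The simulation shares the pooled spread and adds noise independently to each probe set and array. It holds no gap between the arrays of a genotype like the 1 seen in KO, so these shares need not hold for the real arrays.

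Members and lists were chosen with earlier results of these data known. Named genes are all member probe sets, Pparg, per list the probe sets past the threshold or the 4 with the smallest p, and the 3 genes most like the member with the smallest p. Apoc1, Apoc4 and the marker genes were picked for the cluster and the cell check. Alternatives changed the scaling (quantile, median), the filter (none, 60th percentile), the pseudocount (1, 64), the moderation (untrended, robust, none) or the threshold (adjusted p of 0.1, or 1.5-fold), added a replicate block, or left out an array. The number of arrays limits the precision. Figures used matplotlib 3.10.9 in Python 3.11.15.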

Additional observations from a re-analysis of the deposited data

How the results depend on the processing

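Of the 8 efflux and transport probe sets, 0 passed as reported and 1 (Apoe) passed with quantile normalization, eBayes without trend or the replicate number as a block, and from 0 to 1 when an array was left out. Over all tested probe sets the count was 227 as reported, 419 with quantile normalization (170 higher, against 65 as reported), 480 with the block, 90 with a 1.5-fold rule, 0 without moderation (388 at an unadjusted p under 0.05) and from 54 to 327 when an array was left out. In the 7 pathway lists 1 passed as reported, 3 with quantile normalization, 2 without trend, 2 at an adjusted p of 0.1, 5 with the block, 0 without moderation, 0 with the 1.5-fold rule and from 0 to 3 with an array left out. The labels do not say whether arrays with the same replicate number share an animal, batch or day. Replicate 2 minus replicate 1 correlated at r = 0.42 between WT and KO across probe sets, and a shared batch was not tested. With the block, Apoe had a limma adjusted p of 0.019 and 7.51% of probe sets passed. Nr1h3 (0.00173), Lipa (0.0158), Lpl (0.0236) and Lipe (0.0236) passed there as well as Clu. Pparg kept its log2 difference of -0.52 without moderation (adjusted p = 0.737) and under the 1.5-fold rule but did not pass, and ran from -0.62 to -0.42 with an array left out. Pseudocounts of 1 and 64 gave -0.66 and -0.31, and both passed.

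Signs turned for small differences. With quantile normalization Pltp moved to 0.0142, Rxrb to 0.0012 and Cyp8b1 to 0.0011. With an array left out, the range was -0.25 to 0.0141 for Abca1 94354_at, -0.15 to 0.0178 for Pltp, -0.31 to 0.0457 for Npc1, -0.23 to 0.0803 for Npc2, -0.17 to 0.10 for Ncoa5, -0.20 to 0.0478 for Lrpap1, -0.21 to 0.0746 for Lrp1, -0.30 to 0.0352 for Plin2, -0.11 to 0.003 for Ces1d, -0.10 to 0.25 for Hsd17b4, -0.13 to 0.0682 for Cyp8b1, -0.088 to 0.11 for Hsd3b7, -0.18 to 0.0363 for Srebf1 and -0.16 to 0.0634 for Mbtps1. Apoe (0.22 to 0.52), Apoc2 (0.05 to 0.19), Abcg1 (-0.20 to -0.14) and Abca1 97198_at (-0.32 to -0.06) kept their direction there. The cause of these changes was not tested. When an array was left out, the lone array of a genotype was assumed to vary like the others.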
